A study of Mus musculus with 8 samples.

Results

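FIH null mouse embryonic fibroblasts were compared with wild type mouse embryonic fibroblasts, with 2 arrays for FIH null cells and 2 for wild type cells, 4 of the 8 arrays of the series. The arrays were chosen by their labelled genotype alone, and no measured value entered the choice. The cells, embryo-derived fibroblasts immortalized with the viral oncoprotein large T, were grown at 21% oxygen in all groups. FIH null cells came from a line labelled FIHdf that was infected with an adenovirus carrying Cre, a recombinase that cuts out DNA between its target sites. Wild type cells carry no targeted deletion by their label, and the labels do not say whether they received the virus. The remaining 4 arrays, 2 of VHL/FIH null cells (called double null here) and 2 of VHL null cells, were made the same way from lines labelled VHLdf/FIHdf and VHLdf. They enter below as a second pair of groups that differ in FIH. Each null group came from its own line, so the FIH genotype and the line of origin cannot be told apart. The labels call the arrays biological replicates and do not name separate embryos or cultures, so the spread behind each p-value is that between these arrays and may be technical.

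FIH (factor inhibiting HIF), the product of Hif1an, is an oxygen-dependent enzyme that hydroxylates an asparagine in the activation domain of the HIF alpha subunits and so keeps them from binding the coactivators p300 and CBP. VHL belongs to a ubiquitin ligase and recognises HIF alpha subunits after prolyl hydroxylases (the Egln genes) have marked them, which leads to their degradation. In cells with oxygen and VHL little HIF alpha protein is therefore present for FIH to act on. FIH also hydroxylates proteins with ankyrin repeats, among them Notch receptors and I kappa B alpha.

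Values are MAS5 signals, a linear brightness per probe set that the authors scaled to the same mean on each array. Differences are FIH null minus wild type on the scale of log2(signal + 16), a scale that understates the change of dim genes. A gene passed at a limma adjusted p under 0.05 over all 24523 tested probe sets, and rose or fell is written only of genes that passed. The signal cutoff is 291.1, the median of all signals: where both arrays of a group lay at or below it, the fold is given as "at least", the brighter group's mean signal divided by the cutoff. These are bulk cultures, in which fewer cells of a type and less RNA per cell cannot be told apart. The arrays held fibroblast RNA in both groups: 11 of 14 fibroblast markers were above the cutoff on all 4 arrays, with summed signals of 444463 and 415118 in FIH null cells and 373374 and 352543 in wild type cells. Among 8 endothelial and 10 skeletal muscle markers 0 were above it on all 4 arrays. Every other list had some: 5 of 7 neural, 4 of 10 macrophage, 3 of 9 epithelial, 1 of 6 adipocyte and 1 of 11 cartilage and bone markers. Replicate arrays differed by an SD of 0.34 in FIH null cells and 0.34 in wild type cells over log2 values of all tested probe sets. Spiked hybridization controls, which do not come from the cells, were higher by 0.26 (log2) on FIH null arrays than on wild type arrays.

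The targeted gene was reduced in FIH null cells but still gave signal. Hif1an read 1676 and 1707 in FIH null cells, against 2722 and 3013 in wild type cells. Both FIH null arrays lay below both wild type arrays, a fall by 0.75 on the log2 scale (SE 0.119, adjusted p = 0.00449). Its other probe sets read lower as well without passing, by log2 differences of -1.50 (adjusted p = 0.245) and -1.12 (adjusted p = 0.072). Which exons were removed is not stated, and probes against exons that remain could not show the loss. Vhl, which was not targeted in these cells, read 3534 and 3426 in FIH null cells, against 3269 and 3319.6 in wild type cells (log2 difference 0.08, adjusted p = 0.766).

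Of 18 tested genes of the HIF system 1 rose and 1 fell, Egln3 and Hif1an. Over all 11564 tested genes 5.28% passed, 1.39% higher and 3.89% lower. These shares are the background for each list count below. The lists were chosen with earlier results of these data known, so no list share is a test of its genes as a set. Hif1a, the main alpha subunit gene of fibroblasts, read 27146 and 26237 in FIH null cells, against 30620.4 and 30233 in wild type cells, a log2 difference of -0.19 that did not pass (adjusted p = 0.142), while the average of its 3 probe sets did (-0.27, adjusted p = 0.0433). Epas1, which encodes HIF-2 alpha, was below the cutoff on all 4 arrays. Arnt, the common beta subunit gene, differed by -0.12 (adjusted p = 0.531) and Egln2 by -0.09 (adjusted p = 0.593). Egln1, the main prolyl hydroxylase gene, read 7499.9 and 7935 in FIH null cells, against 6725 and 6705 in wild type cells. Its difference of 0.20 did not pass (adjusted p = 0.146), whereas its second probe set did (0.57, adjusted p = 0.00409), as did the mean of both (0.39, adjusted p = 0.0119). Egln3, a prolyl hydroxylase gene that HIF itself induces, read 1086 and 1106 in FIH null cells, against 633 and 603 in wild type cells. Those arrays did not overlap, and the rise of 0.81 (SE 0.084, adjusted p = 0.000265) passed with each of the 4 arrays left out in turn.

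In all 611 genes changed, 161 higher and 450 lower, so that 26.4% of the changes were rises. Falls were also larger: among the 205 genes that changed at least 2-fold (1.77% of tested genes), 15 were higher and 190 lower, and at 4-fold 5 were higher and 69 lower. The median log2 difference was 0.44 over the rises, -0.81 over the falls and -0.003 over all tested genes. In all of the 611 genes the arrays of the groups did not overlap, which 55.5% of all tested genes showed. A lack of overlap named for a gene that passed, here or elsewhere, is therefore no added support for its call. Signals were above the cutoff on all 4 arrays for 500 of the 611. Of 332 changed genes with more than 1 tested probe set, 285 had the same sign in all of them, 150 had another probe set that passed and 1, H2-D1, had a probe set that passed with the opposite sign. Leaving out 1 array reduced the counts: without FIH null replicate 1 there were 297 changed genes, without FIH null replicate 2 there were 322, without wild type replicate 1 there were 315 and without wild type replicate 2 there were 320. With each of the 4 left out, 211 genes still passed, 26 higher and 185 lower. The split depends on scale: centring each array on its median moved the median of all genes to 0.09 and gave 622 rises and 344 falls (64.4% higher), and scaling to the hybridization controls moved it to -0.259 and gave 62 rises and 4445 falls (1.4% higher).

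**Figure D1:**
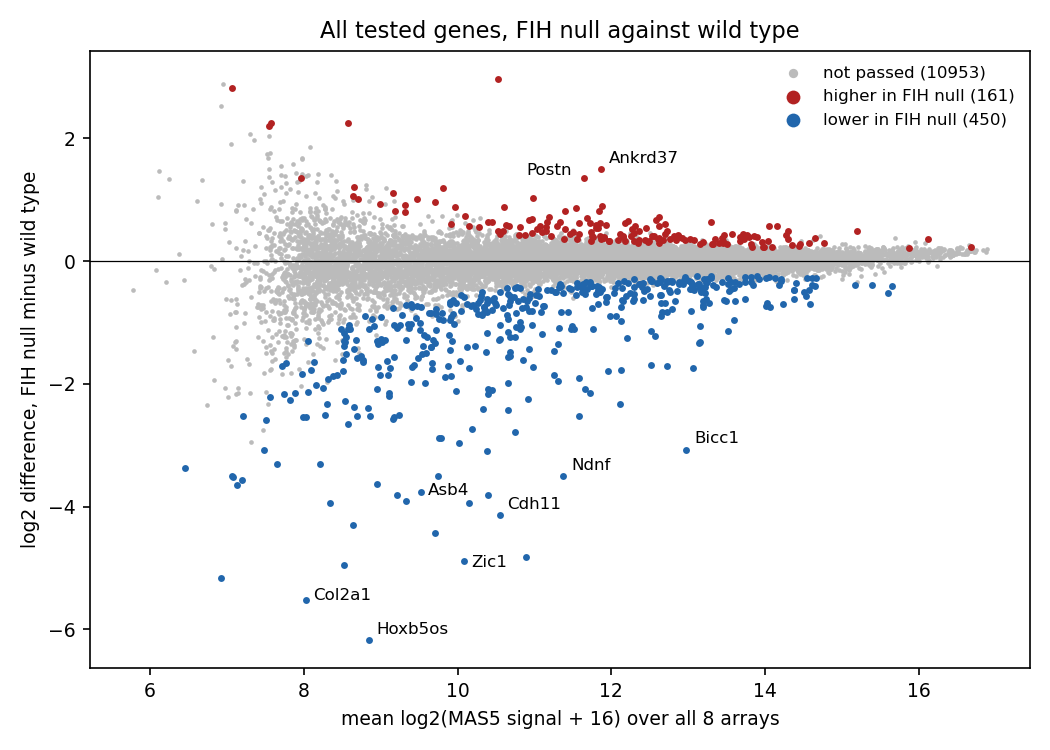
Each point is 1 of 11564 tested genes, with its mean log2(MAS5 signal + 16) over all 8 arrays on the x axis and its log2 difference, FIH null minus wild type, on the y axis; colours mark the 161 genes higher and the 450 lower in FIH null cells at a limma adjusted p under 0.05. The points below 0 reach -6.17 (Hoxb5os), while the labelled rises lie at 1.50 (Ankrd37) and 1.35 (Postn).

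Among genes above the cutoff on all 4 arrays, the 10 largest rises ran from 0.93 to 1.50 on the log2 scale and were led by a HIF target and a matrix gene. Ankrd37, an ankyrin-repeat gene that HIF-1 induces, read 3207 and 3112 in FIH null cells, against 974 and 1249.7 in wild type cells. Postn, which encodes the matrix protein periostin, read 12684 and 12295 in FIH null cells, against 4980.0 and 4788 in wild type cells. Every FIH null array lay well above both wild type arrays in both genes, with log2 rises of 1.50 (SE 0.13, adjusted p = 7.36e-05) and 1.35 (SE 0.1, adjusted p = 2.37e-05). Aspn, a small proteoglycan gene of the asporin type, read 1393 and 1438 in FIH null cells, against 599 and 619 in wild type cells (rise of 1.20, adjusted p = 0.00303). Pygl, which encodes the liver form of glycogen phosphorylase, read 1001 and 966 in FIH null cells, against 428 and 519 in wild type cells (rise of 1.04, adjusted p = 0.000606). Alx1, a homeobox gene of the face, read 3715 and 3812 in FIH null cells, against 1687 and 1561 in wild type cells (rise of 1.21, adjusted p = 0.0179). The other 5 were Tspyl3 (1.06), Gas7 (1.01), Mgst1, a microsomal glutathione transferase gene (1.01), Mpp2 (0.96) and Slc14a1, a urea transporter gene (0.93). The calls of Alx1, Tspyl3, Mgst1, Mpp2 and Slc14a1 ended with any 1 of the 4 arrays left out (adjusted p from 0.0924 to 0.304). That of Gas7 ended without FIH null replicate 1 (0.143), FIH null replicate 2 (0.106) or wild type replicate 1 (0.141). With the mean of their probe sets Gas7 differed by 0.51 (adjusted p = 0.311) and Slc14a1 by 0.51 (adjusted p = 0.245), and none of their other probe sets passed (0.19 and 0.34 for Gas7, 0.08 for Slc14a1).

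The 10 largest falls above the cutoff ran from 11.5-fold to 4.55-fold, and each passed with any 1 of the 4 arrays left out. Ndnf, which encodes a secreted neuron-derived factor, read 624 and 709 in FIH null cells, against 7627 and 7757 in wild type cells, 11.5-fold lower (log2 difference -3.50, SE 0.1, adjusted p = 2.2e-08). Bicc1, an RNA-binding protein gene, read 1929.9 and 1832 in FIH null cells, against 15884 and 15968 in wild type cells, 8.47-fold lower (log2 difference -3.07, adjusted p = 5.4e-08). Fbn2, which encodes the microfibril protein fibrillin-2, read 907 and 1138 in FIH null cells, against 5898 and 5993 in wild type cells, 5.81-fold lower (log2 difference -2.53, adjusted p = 4.53e-07). In each of these genes both FIH null arrays lay far below both wild type arrays. The others were the Hox genes Hoxb6 (8.8-fold), Hoxb3 (8.11-fold) and Hoxc5 (5.38-fold), the adhesion molecule gene Alcam (5.54-fold), the RNA-binding protein gene Rbm45 (5.09-fold), the G protein subunit gene Gnai1 (4.8-fold) and Spry1, an inhibitor of receptor tyrosine kinase signalling (4.55-fold).

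**Figure D2:**
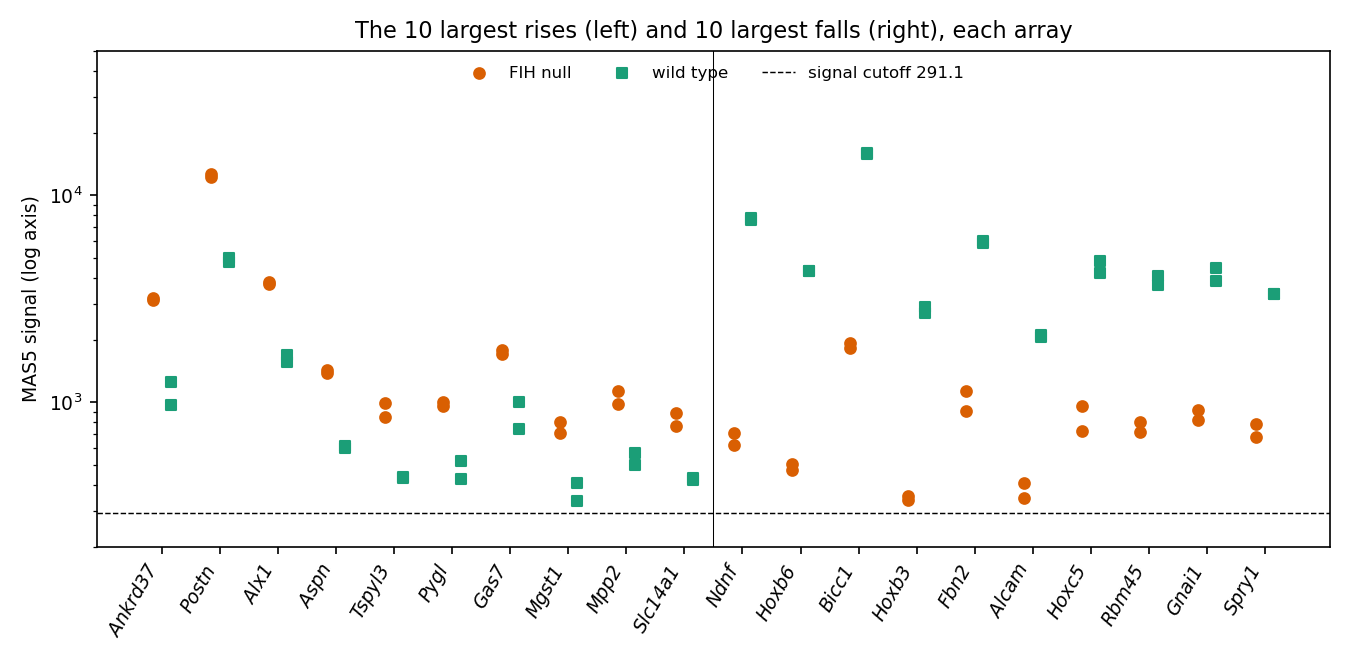
MAS5 signal on a log axis of the 10 largest rises and the 10 largest falls among genes above the cutoff on all 4 arrays, with circles for the 2 FIH null arrays and squares for the 2 wild type arrays and a dashed line at the cutoff of 291.1. Within a group the 2 arrays lie close together, and the gap between groups is wider in the falls (Ndnf, 624 and 709 against 7627 and 7757) than in the rises (Postn, 12684 and 12295 against 4980.0 and 4788).

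For 80 of the falls both FIH null arrays were at or below the cutoff while the wild type mean was above it. Zic1, a zinc finger gene of neural and skeletal patterning, read 189 and 179 in FIH null cells, against 5762 and 6067 in wild type cells, at least 20.3-fold lower (adjusted p = 3.84e-06). Hoxb5os, a transcript antisense to the HoxB cluster, read 25.2 and 54.7 in FIH null cells, against 3940.0 and 3809 in wild type cells, at least 13.3-fold lower (adjusted p = 5.79e-07). Cdh11, which encodes the mesenchymal cadherin-11, read 177 and 191 in FIH null cells, against 3402 and 3622 in wild type cells, at least 12.1-fold lower (adjusted p = 4.37e-08). In these genes a bright wild type signal stood against FIH null signals below the median of the arrays. Asb4 was at least 9.97-fold lower, Hoxb9 at least 9.29-fold and Pcbd1, a dehydratase that also acts as a cofactor of HNF1, at least 9.09-fold. All 6 passed with any 1 of the 4 arrays left out.

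The opposite pattern, wild type at or below the cutoff and the FIH null mean above it, was seen in 4 rises. 1810062G17Rik read 808 and 645 in FIH null cells, against 190.3 and 99.8 in wild type cells, at least 2.50-fold higher (adjusted p = 0.00456, and 0.0529 without FIH null replicate 1). Lhx2, a LIM homeobox gene, was at least 1.71-fold higher, Ntng1, which encodes netrin-G1, at least 1.13-fold and Nos1ap, an adaptor of neuronal nitric oxide synthase, at least 1.01-fold. These calls were weak: those of Ntng1 and Nos1ap ended with any 1 of the 4 arrays left out (adjusted p from 0.066 to 0.224), and that of Lhx2 without FIH null replicate 2 (0.262), wild type replicate 1 (0.193) or wild type replicate 2 (0.0664). A few more genes, picked once their values were known and not by the rule for names, follow. Ces5a, a carboxylesterase gene with the largest log2 rise of all (2.97, adjusted p = 0.00432), read 2957 and 2998 in FIH null cells, against 746 and 175 in wild type cells, where 1 array was below the cutoff and the other above it. Nts, the neurotensin gene, read 19.8 and 5.4 in FIH null cells, against 962 and 993 in wild type cells, at least 3.36-fold lower (adjusted p = 0.00196). Ifi202b, an interferon-inducible gene of the p200 family, read 15.7 and 56.7 in FIH null cells, against 1287 and 1413 in wild type cells, at least 4.64-fold lower (adjusted p = 4.57e-06).

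The first question was whether genes that HIF induces were higher without FIH. Outside glycolysis 45 hypoxia-inducible genes were tested, of which 8 rose and 4 fell (26.7%, against 5.28% of all tested genes). The median log2 difference was 0.09, against -0.003 over all tested genes. Scaled to the hybridization controls, 4 rose and 16 fell with a median of -0.16, against -0.259 over all genes. With 1 of the 4 arrays left out, 4 to 6 rose and 4 fell. Besides Ankrd37 and Egln3 the rises were Car12, a carbonic anhydrase gene (0.58), P4ha1 and P4ha2, which encode collagen prolyl hydroxylases (0.57 and 0.36), Gbe1, the glycogen branching enzyme gene (0.55), Ak4, a mitochondrial adenylate kinase gene (0.53), and Ddit4, an inhibitor of the growth kinase mTOR (0.33). P4ha1 read 15588 and 15256 in FIH null cells, against 10589.7 and 10179 in wild type cells (adjusted p = 0.00218). Gbe1 read 1180.3 and 1237 in FIH null cells, against 776 and 864 in wild type cells (adjusted p = 0.00797). The calls of Car12, Ddit4 and P4ha2 ended with any 1 of the 4 arrays left out (adjusted p from 0.0563 to 0.209), and that of Gbe1 without FIH null replicate 2 (0.0676) or wild type replicate 1 (0.0568).

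The 4 hypoxia-inducible genes that fell were Errfi1, Ndrg1, Adm and Stc1. Errfi1, a feedback inhibitor of the EGF receptor, read 10381 and 10271 in FIH null cells, against 17311 and 17449 in wild type cells (log2 difference -0.75, SE 0.058, adjusted p = 3.13e-05). Adm, which encodes the vasodilator adrenomedullin, read 578 and 521 in FIH null cells, against 933 and 1048 in wild type cells (-0.83, adjusted p = 0.00136). Ndrg1, a stress-response gene, read 5491 and 5368 in FIH null cells, against 7217 and 7714 in wild type cells (-0.46, adjusted p = 0.00152). These 3 were above the cutoff on all 4 arrays, and each passed with any 1 left out. Stc1, the stanniocalcin gene, was below the cutoff in both groups, at 40.4 and 43.5 in FIH null cells and 185 and 132 in wild type cells, and its call ended with a fit on only the compared groups (adjusted p = 0.219). Several widely used reporters of HIF activity did not pass: Vegfa differed by -0.002 (adjusted p = 0.996), Bnip3 by 0.01 (adjusted p = 0.97) and Car9 by 0.71 (adjusted p = 0.17). The SEs were 0.109 for Vegfa, 0.071 for Bnip3 and 0.255 for Car9, so a sizeable difference in Car9 was not detectable here.

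Glucose uptake and glycolysis had 3 rises and 1 fall among 21 tested genes, 17 differences were positive and the median was 0.18; scaled to the hybridization controls 2 rose, 4 fell and the median was -0.08. Aldoc, an aldolase gene, read 1916 and 1848 in FIH null cells, against 1010.1 and 1036 in wild type cells (rise of 0.87, adjusted p = 0.00023). Slc16a3, the lactate exporter gene MCT4, read 6758 and 6887 in FIH null cells, against 4368 on both wild type arrays (0.64, adjusted p = 0.0099). Pdk1, a kinase that holds pyruvate back from the mitochondrial oxidation route, read 6592 and 7036 in FIH null cells, against 4991 and 5378 in wild type cells (0.39, adjusted p = 0.00465). Pfkfb2, whose product sets the level of the phosphofructokinase activator, was the member that fell, with 489 and 498 in FIH null cells, against 1356 and 1479.5 in wild type cells (-1.49, adjusted p = 0.000216). The glucose transporter gene Slc2a1 (0.17, adjusted p = 0.24) and the lactate dehydrogenase gene Ldha (0.17, adjusted p = 0.34) did not pass. The Slc16a3 call ended with any 1 of the 4 arrays left out (adjusted p from 0.0544 to 0.0663), and that of Pdk1 without FIH null replicate 2 (0.0629) and with scaling to hybridization controls (0.18).

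**Figure D3:**
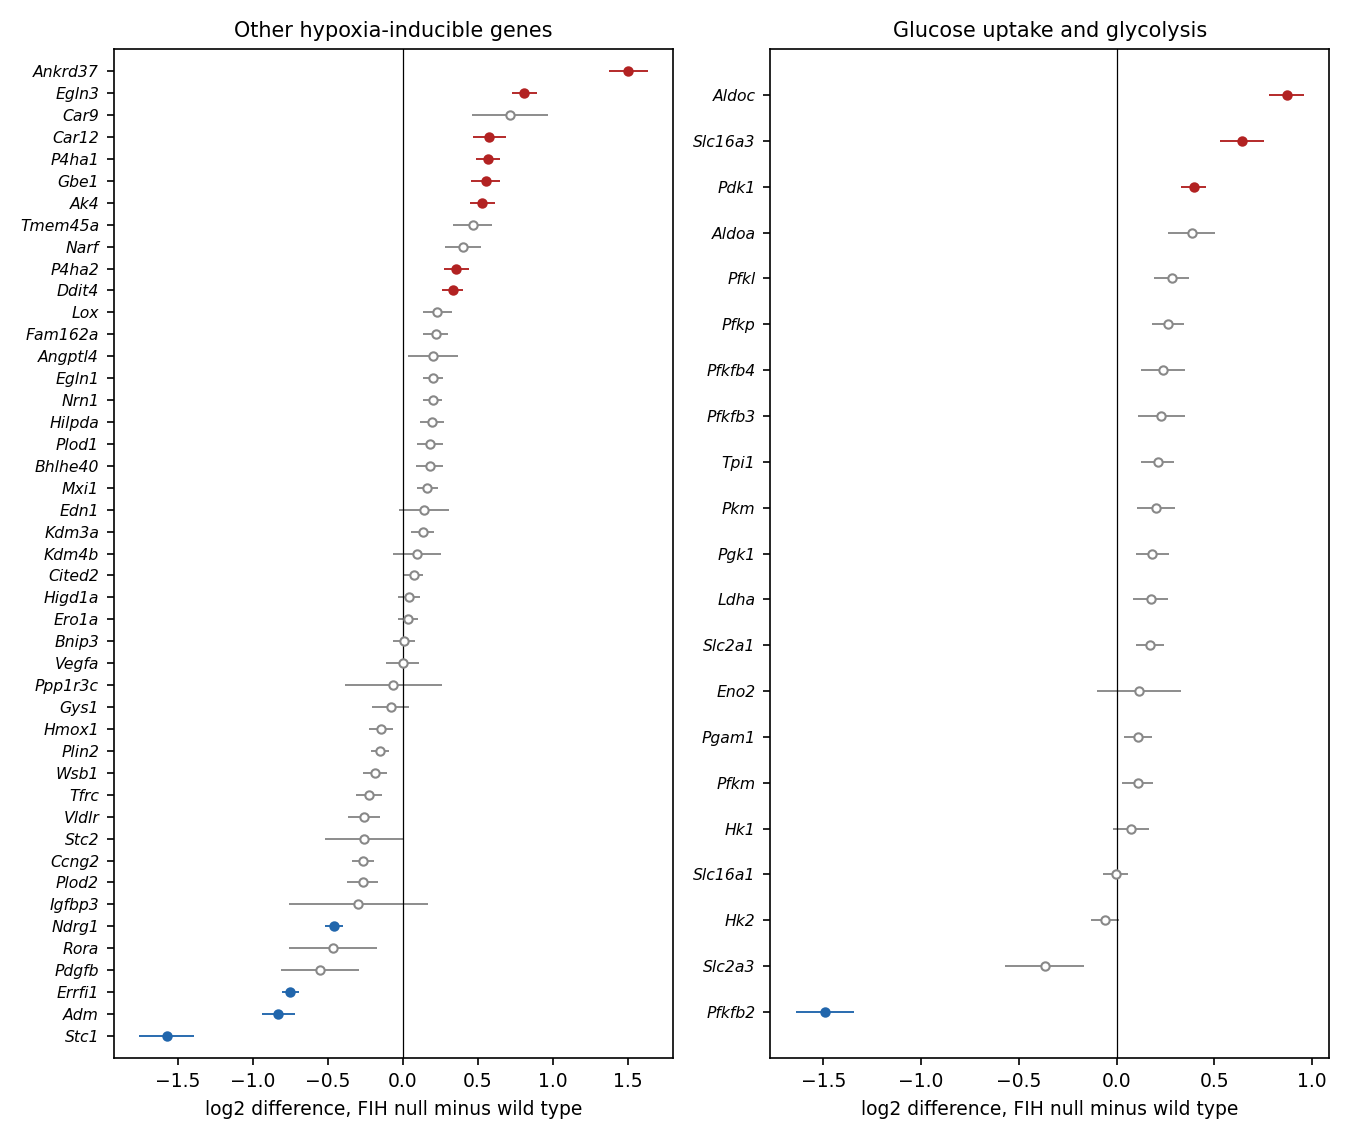
Log2 difference, FIH null minus wild type, with its limma standard error, of every tested gene of the 2 lists, hypoxia-inducible genes on the left and genes of glucose uptake and glycolysis on the right; filled red points rose, filled blue points fell and open points did not pass. Ankrd37 lies at 1.50 at the top of the left panel, and the open points gather near 0.

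HIF binds a short core, ACGTG or GCGTG, so promoters of 3 genes that rose in both pairs of groups are shown. The 250 bases before the start of Ankrd37 (chr8:45999851-46000100, minus strand), Egln3 (chr12:54203875-54204124, minus strand) and Pygl (chr12:70227684-70227933, minus strand) are RefSeq sequence of build GRCm38.p6, given 5′ to 3′ along the gene, with capitals for a match of the core on either strand.

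Ankrd37: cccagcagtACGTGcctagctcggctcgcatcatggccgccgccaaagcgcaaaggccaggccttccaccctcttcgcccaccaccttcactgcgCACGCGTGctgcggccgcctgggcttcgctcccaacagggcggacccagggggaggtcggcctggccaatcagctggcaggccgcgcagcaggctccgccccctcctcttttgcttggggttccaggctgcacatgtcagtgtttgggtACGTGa
Egln3: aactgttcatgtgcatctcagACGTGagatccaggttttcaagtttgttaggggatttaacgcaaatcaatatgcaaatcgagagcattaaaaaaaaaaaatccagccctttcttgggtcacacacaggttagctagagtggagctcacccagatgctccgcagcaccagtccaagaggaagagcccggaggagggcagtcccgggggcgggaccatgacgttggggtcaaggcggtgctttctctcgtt
Pygl: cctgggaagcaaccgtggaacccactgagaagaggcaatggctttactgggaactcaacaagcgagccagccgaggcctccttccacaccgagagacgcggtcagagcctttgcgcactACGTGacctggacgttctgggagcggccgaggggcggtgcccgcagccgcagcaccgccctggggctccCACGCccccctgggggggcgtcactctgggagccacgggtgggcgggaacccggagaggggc

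Ankrd37 had 4 matches, 2 of them overlapping in CACGCGTG, Pygl had 2 and Egln3 had 1. The core is common: 38.6% of all 32851 promoter windows of this length held it, and 57.2% of 9382 windows of tested genes. It was found in 50.0% of 114 windows of genes that rose and in 47.9% of 332 windows of genes that fell. In the hypoxia and glycolysis lists 9 of 11 windows of genes that rose held it, as did 2 of 3 of those that fell and 31 of 41 of those that did not pass. A match describes the letters and is not a measured binding site.

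Reported FIH substrates other than HIF, most of them ankyrin-repeat proteins, were looked at as transcripts: of 12 tested 0 rose and 2 fell. Asb4, an ankyrin-repeat part of a ubiquitin ligase, read 164 and 238 in FIH null cells, against 2796 and 3007 in wild type cells (adjusted p = 3.28e-06). Notch1, a receptor of cell-to-cell signalling, read 1014 and 1053 in FIH null cells, against 2631 and 2388 in wild type cells, 2.43-fold lower (log2 difference -1.27, adjusted p = 0.000304). A second Notch1 probe set did not pass (-0.49, adjusted p = 0.27). Nfkbia, which encodes I kappa B alpha, differed by 0.08 (adjusted p = 0.495), Notch2 by 0.05 (adjusted p = 0.78) and the tankyrase gene Tnks2 by -0.10 (adjusted p = 0.44). Of 23 Notch ligands, modifiers and targets 0 passed (limma), 2 had an unadjusted p under 0.05, and the differences ran from -0.72 to 0.53. These are transcript levels, and hydroxylation was not measured.

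Of the Hox genes, which set position along the body axis and in the limbs, 40.0% of tested members passed, against 5.28% of all tested genes. The list was chosen with earlier results of these data known, so its share is not a test of Hox genes as a set. Of 25 tested 2 rose and 8 fell, with a median of -0.26. The falls lay mostly in 2 clusters: HoxB had 4 falls among 6 tested genes and HoxC had 3 among 6, while HoxA had 1 rise and 0 falls among 8 and HoxD 1 of each among 5. Hoxb6 read 472 and 506 in FIH null cells, against 4316 and 4296 in wild type cells (log2 difference -3.10, adjusted p = 1.14e-07). Hoxb3 read 352 and 338 in FIH null cells, against 2696 and 2898 in wild type cells (-2.96, adjusted p = 7.69e-06). Hoxb9 read 276 and 182 in FIH null cells, against 2929.8 and 2479.7 in wild type cells (adjusted p = 3.84e-06). All 3 were far brighter on every wild type array than on either FIH null array. Hoxb2, nearer the end of the cluster, kept more signal, 1012 and 1112 in FIH null cells against 3196 and 2453 in wild type cells (-1.39, adjusted p = 0.000283).

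In the HoxC cluster Hoxc4 read 517 and 242 in FIH null cells, against 6191 and 5159 in wild type cells (log2 difference -3.93, adjusted p = 3.13e-05). Hoxc5 read 958 and 726 in FIH null cells, against 4826 and 4232 in wild type cells, and its 3 probe sets all passed with differences from -2.94 to -2.42. Hoxc10 read 100.2 and 48.6 in FIH null cells, against 1077 and 1343 in wild type cells, at least 4.16-fold lower. Between these, Hoxc6 (-0.60, adjusted p = 0.055), Hoxc8 (-0.26, adjusted p = 0.76) and Hoxc9 (-0.97, adjusted p = 0.17) did not pass. The genes that rose were Hoxd13, a gene of the digits, with 10573 and 10980.1 in FIH null cells against 7009 and 6221 in wild type cells (0.71, adjusted p = 0.00147), and Hoxa11 (0.48, adjusted p = 0.0364). Hoxd8 fell by 0.61 (adjusted p = 0.0376). With 1 of the 4 arrays left out 1 Hox gene rose and 7 to 9 fell. The Hoxa11 call ended with any 1 left out (adjusted p from 0.0891 to 0.254), and that of Hoxd8 without FIH null replicate 1 (0.26), wild type replicate 1 (0.158) or wild type replicate 2 (0.111).

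**Figure D4:**
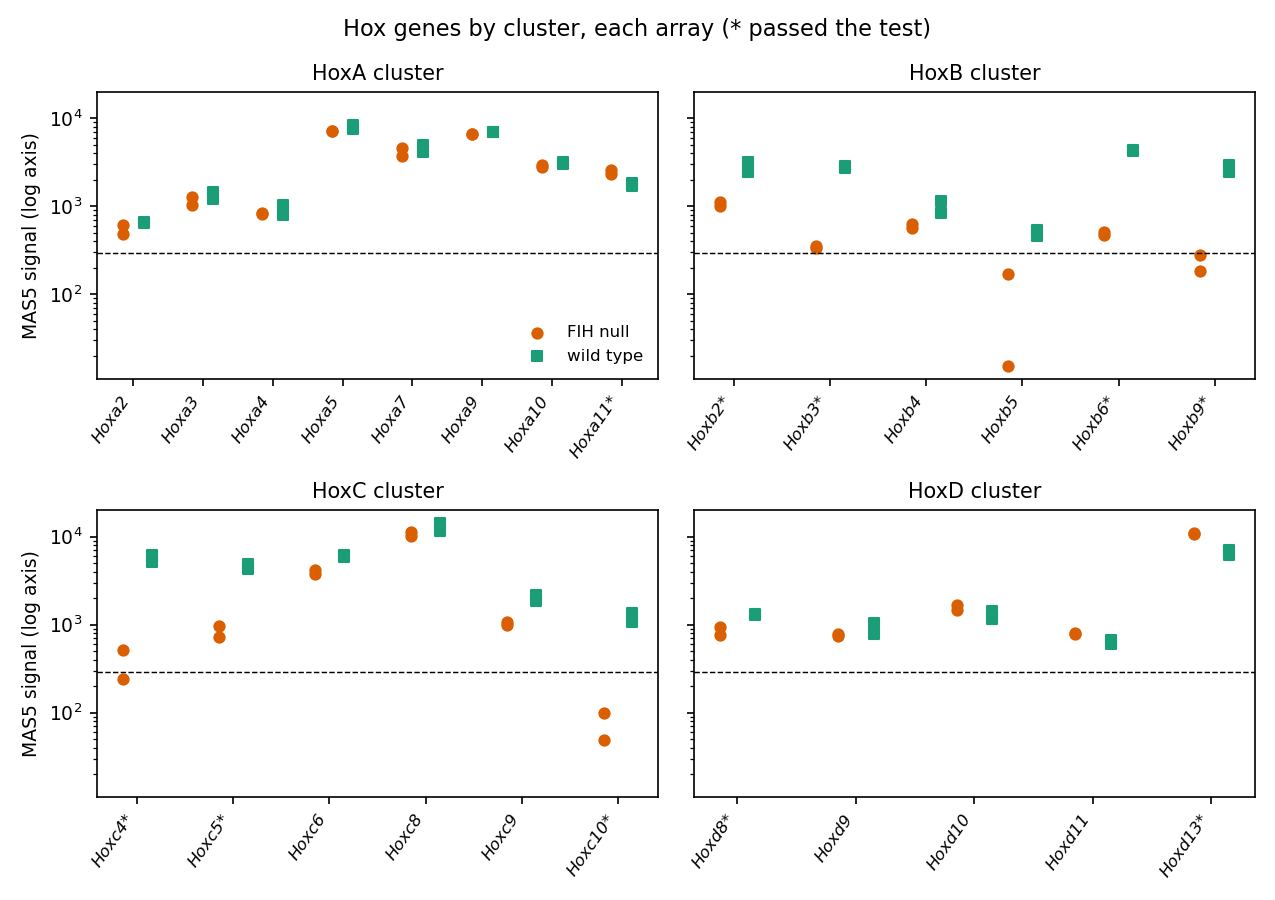
MAS5 signal on a log axis of every tested Hox gene, by cluster and in order of gene number, with circles for the 2 FIH null arrays, squares for the 2 wild type arrays, a dashed line at the cutoff of 291.1 and an asterisk on genes that passed. In HoxA the groups lie side by side (Hoxa9, log2 difference -0.08), while in HoxB and HoxC several genes stand apart (Hoxb6, 472 and 506 against 4316 and 4296).

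Of 72 other patterning transcription factors 10 rose and 13 fell, with a median of -0.03. That was 31.9% of them, against 5.28% of all tested genes, and this list too was chosen with earlier results known. Besides Zic1 the lowest p-values among the falls belonged to Osr2, an odd-skipped gene of limb and palate, with 207 and 166 in FIH null cells against 899.7 and 919.6 in wild type cells, at least 3.13-fold lower. Foxc2, a forkhead gene of mesenchyme, read 795 and 900.2 in FIH null cells, against 2088 and 1721 in wild type cells (log2 difference -1.15, adjusted p = 0.000475). Sox4, an SRY-related gene, read 36957 and 38070.1 in FIH null cells, against 53536 and 53937 in wild type cells (-0.52, adjusted p = 0.000222). The arrays of the groups did not overlap in any of the 3, as in all 611 genes that passed and 55.5% of all tested genes. Shox2 of the proximal limb (-1.63, adjusted p = 0.000673), Pax9 (-1.73, adjusted p = 0.00273) and Irx3 (-1.09, adjusted p = 0.00162) fell too. Prrx1, a homeobox gene of limb mesenchyme, read 24871 and 24086 in FIH null cells, against 16089 and 16951 in wild type cells, a rise of 0.57 (adjusted p = 0.000989). With 1 of the 4 arrays left out 1 to 3 of these factors rose and 8 to 11 fell.

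Matrix genes changed in both directions. Of 25 tested collagen chains 3 rose and 4 fell (28.0% passed, median -0.08). Of 52 other matrix proteins 6 rose and 11 fell (32.7% passed, median -0.07), against 5.28% passing over all tested genes. Col2a1, the cartilage collagen gene, read 24.1 and 40.2 in FIH null cells, against 2049.5 and 2272 in wild type cells, at least 7.42-fold lower (adjusted p = 8.73e-06). Col18a1, a basement membrane collagen gene, read 1582 and 1489 in FIH null cells, against 6764 and 6343 in wild type cells, 4.27-fold lower (log2 difference -2.08, adjusted p = 1.78e-06). Col1a1, which encodes the main chain of type I collagen, read 53718 and 51073 in FIH null cells, against 36996 and 37115 in wild type cells, a rise of 0.50 (adjusted p = 0.00442, and 0.0522 without FIH null replicate 1). Its second probe set did not pass (0.14, adjusted p = 0.666), nor did their average (0.32, adjusted p = 0.0908). The other collagens that passed were Col4a5 (-0.62), Col6a2 (-0.35), Col5a1 (0.37) and Col1a2 (0.36). The Col5a1 call ended with any 1 of the 4 arrays left out (adjusted p from 0.0708 to 0.254). Col1a2 ended without FIH null replicate 1 (0.178), wild type replicate 1 (0.0924) or wild type replicate 2 (0.108), and Col6a2 without FIH null replicate 1 (0.105), FIH null replicate 2 (0.0889) or wild type replicate 1 (0.104). With 1 array left out 0 to 2 collagens rose and 3 to 4 fell. Centred on medians 7 collagens rose and 3 fell, and scaled to hybridization controls 1 rose and 12 fell, while the falls of Col2a1 and Col18a1 were among those that passed under every setting.

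Outside the collagens, Npnt, which encodes the integrin ligand nephronectin, read 1667 and 1715 in FIH null cells, against 6034 and 5698 in wild type cells, 3.47-fold lower (log2 difference -1.78, adjusted p = 9.56e-07). Ogn, the osteoglycin gene, read 5803 and 5818 in FIH null cells, against 13672 and 15406 in wild type cells, 2.5-fold lower (-1.32, adjusted p = 4.5e-05). Mfap2, whose product sits on fibrillin microfibrils as does that of Fbn2, read 715 and 691 in FIH null cells, against 2361 and 2431 in wild type cells, 3.41-fold lower (-1.75, adjusted p = 0.000109). These arrays did not overlap in any of the 3 genes, and all 3 calls remained with any 1 array left out. Thbs2 (-1.48) and Nid2 (-0.83) also fell, with adjusted p = 0.00023 and 0.000422. With 1 of the 4 arrays left out 2 to 3 of these other matrix genes rose and 8 to 9 fell. Of 16 matrix proteases and their inhibitors 1 rose, the gelatinase gene Mmp2, with 8629 and 9461 in FIH null cells against 6204 and 6620.4 in wild type cells (0.49, adjusted p = 0.00461, and 0.0598 with scaling to hybridization controls). Adamts4, an aggrecanase gene, fell (-1.03), and its call ended with any 1 of the 4 arrays left out (adjusted p from 0.121 to 0.181).

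Genes of 4 growth factor pathways are read against all changed genes, of which 73.6% fell. Of 44 tested Wnt ligands, receptors and inhibitors 0 rose and 9 fell (median -0.09), and with 1 of the 4 arrays left out 5 to 8 fell. Centred on medians 0 rose and 9 fell, and scaled to hybridization controls 0 rose and 19 fell. Fzd1, a Wnt receptor gene, read 5388 and 5783 in FIH null cells, against 11979 and 11397 in wild type cells, 2.09-fold lower (log2 difference -1.06, adjusted p = 1.64e-05). Wnt4, a ligand gene, read 355 and 249.8 in FIH null cells, against 1792 and 1839 in wild type cells (-2.54, adjusted p = 4.67e-05; its second probe set -1.20, adjusted p = 0.123). Rspo2, an amplifier of Wnt signals, read 754 and 659.7 in FIH null cells, against 1671 and 1686 in wild type cells (-1.23, adjusted p = 7.9e-05). Axin2, a target and feedback inhibitor of the pathway, read 280.0 and 124 in FIH null cells, against 1164 and 1128 in wild type cells, at least 3.94-fold lower (adjusted p = 0.0054). So ligand, receptor, amplifier and feedback genes were all among those that fell. The secreted inhibitor gene Sfrp2 fell by 0.73 (adjusted p = 0.00108), while Sfrp1, Wnt2, Wnt5a and Rnf43 made up the rest. The Sfrp1 call ended with any 1 array left out (adjusted p from 0.104 to 0.2), that of Wnt2 without wild type replicate 1 (0.0553), that of Rnf43 without wild type replicate 1 (0.0657) or 2 (0.0874), and that of Wnt5a without FIH null replicate 1 (0.204), wild type replicate 1 (0.0708) or 2 (0.142).

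Of 43 tested genes of the TGF-beta and BMP pathway 1 rose and 7 fell (median -0.09), and 0 to 1 rose and 3 to 5 fell with 1 array left out. Centred on medians 3 rose and 4 fell, and scaled to hybridization controls 0 rose and 23 fell. Inhbb, which encodes the activin B chain, read 308 and 310.5 in FIH null cells, against 1361 and 1396 in wild type cells, 4.46-fold lower (log2 difference -2.10, adjusted p = 2.33e-05). Tgfbi, a TGF-beta-induced matrix gene, read 4172 and 3865 in FIH null cells, against 8768 and 9045 in wild type cells, 2.22-fold lower (-1.15, adjusted p = 3.26e-05). Fst, which encodes follistatin, an antagonist of activin, read 474 and 570.3 in FIH null cells, against 1125 and 1496 in wild type cells (-1.29, adjusted p = 0.00129). An activin chain and its antagonist thus both read lower on every FIH null array. Tgfbr2, a receptor gene, fell by 0.51 (adjusted p = 0.00462, and 0.0539 without FIH null replicate 2). Smad4 (0.25), the rise of this list, and Smad1 (-0.32), Id1 (-0.27) and Smurf2 (-0.25) lost their calls with any 1 array left out (adjusted p from 0.0894 to 0.254).

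Of 22 FGF ligands, receptors and feedback inhibitors 0 rose and 3 fell (median -0.21), and these 3 passed with any 1 array left out. Spry1 read 783 and 684 in FIH null cells, against 3332 and 3338 in wild type cells (log2 difference -2.16, adjusted p = 8.57e-05). Dusp6, a phosphatase gene that ERK signalling induces, read 2337 and 2381 in FIH null cells, against 4019 and 4012 in wild type cells (-0.76, adjusted p = 0.000318). Fgf7, a ligand gene that mesenchyme expresses, fell by 0.81 (adjusted p = 0.00272). Of 14 genes of the IGF system 1 rose and 3 fell (median -0.05), with 2 rises and 3 falls after centring on medians and 1 and 6 after scaling to hybridization controls. Igfbp7, a binding protein gene, read 2267 and 2479 in FIH null cells, against 7691 and 7694 in wild type cells, 3.24-fold lower (-1.69, adjusted p = 3.59e-07; -1.09 when its probe sets were averaged). Igf2 fell by 1.24 (adjusted p = 0.00387) and Igf1 by 0.87 (adjusted p = 0.011), while Igfbp6 rose by 0.57 (adjusted p = 0.0117). The Igf1 and Igfbp6 calls ended without FIH null replicate 1 (0.0647 and 0.106), FIH null replicate 2 (0.0753 and 0.0601) or wild type replicate 2 (0.0989 and 0.0783).

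Of 21 contractile and myofibroblast genes 0 rose and 5 fell, with a median of 0.008. Centred on medians 1 rose and 3 fell, and scaled to hybridization controls 0 rose and 13 fell. Actg2, the enteric smooth muscle actin gene, read 713 and 499 in FIH null cells, against 1966 and 1855 in wild type cells, 3.15-fold lower (log2 difference -1.65, adjusted p = 0.000759). Cnn1, the calponin gene, fell by 0.66 (adjusted p = 0.00372), Ccn2 by 0.39, Smtn by 0.39 and Acta2 by 0.27. The Smtn and Acta2 calls ended with any 1 of the 4 arrays left out (adjusted p from 0.059 to 0.233), and that of Ccn2 without FIH null replicate 1 (0.0746), FIH null replicate 2 (0.111) or wild type replicate 2 (0.115), so that 2 to 3 fell. Of 18 tested cadherins 0 rose and 2 fell, Cdh11 and Fat4, a giant protocadherin gene with 328 and 254 in FIH null cells against 1407 and 1222 in wild type cells (-2.12, adjusted p = 0.000105). A second Cdh11 probe set lay near the cutoff and did not pass (-1.85, adjusted p = 0.0688). Itga6, the laminin receptor subunit alpha 6, was the only one of 12 integrins that passed (-0.63, adjusted p = 0.000844), while 9 of the 12 differences were positive and their median was 0.12. Centred on medians 2 integrins rose and 1 fell, and scaled to hybridization controls 0 rose and 3 fell.

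Of 52 guidance ligands and receptors 1 rose, Ntng1, and 9 fell (median -0.11), and 0 rose and 7 to 9 fell with 1 array left out. Centred on medians 2 rose and 8 fell, and scaled to hybridization controls 1 rose and 22 fell. Sema3c, a secreted semaphorin gene, read 4007 and 4028 in FIH null cells, against 13944 and 12963 in wild type cells, 3.35-fold lower (log2 difference -1.74, adjusted p = 1.5e-05). Sema3a, another semaphorin gene, read 5472 and 5749.5 in FIH null cells, against 9304 and 9220.3 in wild type cells (-0.72, adjusted p = 0.000162). Ntn1, the netrin-1 gene, fell by 1.48 (adjusted p = 4.89e-05), but did not pass when its probe sets were averaged (adjusted p = 0.217). Efnb2, an ephrin gene, fell by 0.65 (adjusted p = 0.000199) and Ephb4, a receptor of that ephrin, by 1.17 (adjusted p = 0.00124). A ligand and receptor pair was therefore lower on both sides.

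Of 13 genes of the retinoid pathway 2 rose and 2 fell (median -0.44). Rarres1, a retinoic acid-induced gene, read 72.5 and 178 in FIH null cells, against 1664 and 1569.9 in wild type cells, at least 5.56-fold lower (adjusted p = 0.000139). Crabp2, which carries retinoic acid to its receptors, read 12551 and 11761 in FIH null cells, against 7089 and 7745 in wild type cells, a rise of 0.71 (adjusted p = 0.000424). Rarg, a receptor gene, rose by 0.41 (adjusted p = 0.00424, 0.0518 without FIH null replicate 1 and 0.132 with scaling to hybridization controls) and Rbp4 fell by 0.95, a call that ended with any 1 array left out (adjusted p from 0.0743 to 0.186). NRF2 targets, which answer oxidant stress, had 5 rises and 1 fall among 27 tested, with a median of 0.14; scaled to hybridization controls 1 rose and 8 fell with a median of -0.11. Nqo1, a quinone reductase gene, read 5694 and 5697 in FIH null cells, against 3653 and 3731 in wild type cells (0.62, adjusted p = 0.000727). The calls of Gsta4 (-0.57) and Me1 (0.23) ended with any 1 array left out (adjusted p from 0.0857 to 0.265). That of Gstm1 (0.46) ended without FIH null replicate 1 (0.192), wild type replicate 1 (0.064) or wild type replicate 2 (0.111), and 1 to 2 targets rose and 0 fell with 1 array left out.

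Metabolic, stress and growth lists held 0 to 4 calls each. Of tested members 10.8% passed for amino acid deprivation and ER stress, 8.0% for fatty acid oxidation and 6.67% for p53 targets. The share was 1.25% for oxidative phosphorylation, against 5.28% of all tested genes. Of 80 oxidative phosphorylation genes 1 passed, Cox6b2, a testis form of a cytochrome oxidase subunit that was below the cutoff in both groups. Of 31 genes of fatty acid and cholesterol synthesis 0 passed and 8 had an unadjusted p under 0.05 (limma). Of 58 genes of the cell cycle and DNA replication 0 passed and 17 had an unadjusted p under 0.05. The cell cycle differences ran from -0.18 to 0.40, and the nearest to passing were Aurkb (0.23, adjusted p = 0.0502) and Cdc25b (0.37, adjusted p = 0.0514). These counts depend on scale: centred on medians 13 oxidative phosphorylation and 8 cell cycle genes rose, and scaled to hybridization controls 39 and 29 of them fell, as did 19 synthesis genes. Of 25 fatty acid oxidation genes 1 rose, Acaa1a (0.47), and 1 fell, the coactivator gene Ppargc1a (at least 1.66-fold lower, adjusted p = 0.00797). Of 37 genes of amino acid deprivation and ER stress 3 rose, Chac1 (0.34), Mthfd2 (0.28) and Slc6a9 (0.36), and Nupr1 fell (-0.37). Of 30 p53 targets 1 rose and 1 fell, the cell cycle inhibitor gene Cdkn2b (0.36) and Trp53inp1 (-0.59, adjusted p = 0.00341). Averaged over their probe sets, Acaa1a (0.08, adjusted p = 0.799), Mthfd2 (0.20, adjusted p = 0.0771) and Slc6a9 (0.31, adjusted p = 0.106) did not pass. The calls of Acaa1a, Chac1 and Slc6a9 ended with any 1 of the 4 arrays left out (adjusted p from 0.0522 to 0.34). Those of Mthfd2 and Cdkn2b ended without FIH null replicate 1 (0.223 and 0.17), FIH null replicate 2 (0.21 and 0.123) or wild type replicate 1 (0.25 and 0.17). Those of Nupr1 and Ppargc1a ended without wild type replicate 2 (0.0761 and 0.0638), and further without FIH null replicate 1 (0.131) for Nupr1 and FIH null replicate 2 (0.0512) for Ppargc1a. Without FIH null replicate 2 the Cox6b2 call ended as well (0.129), as it did without wild type replicate 1 (0.13) or wild type replicate 2 (0.128).

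Of 27 chemokines and cytokines 1 rose and 2 fell. Ccl5, a T cell chemokine gene, read 4596 and 4461 in FIH null cells, against 2766 and 3041 in wild type cells (0.64, adjusted p = 0.00273). Il1rn, which encodes the interleukin-1 receptor antagonist, read 554 and 452 in FIH null cells, against 2348 and 2024 in wild type cells, 4.34-fold lower (log2 difference -2.09, adjusted p = 8.73e-06). Of 36 interferon-stimulated genes 1 rose, the class I histocompatibility gene H2-D1 (0.45), and Ifit2 and Irgm1 fell by 0.41 each. The probe sets of H2-D1 disagreed: 1 more passed as a rise (0.70), while 3 passed as falls with log2 differences of -3.93, -3.45 and -1.25. The H2-D1 call also ended without FIH null replicate 1 (0.107) or wild type replicate 2 (0.0627), and its probe sets averaged to a difference of -0.97 (adjusted p = 0.000275). The calls of Ifit2, Irgm1 and the cytokine gene Clcf1 (-0.51, and -0.33 with the mean of probe sets) ended with any 1 of the 4 arrays left out (adjusted p from 0.0517 to 0.289).

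Some cell type markers are themselves members of the lists above, such as Postn, Col1a1 and Col2a1. Of 13 tested fibroblast markers 3 rose (Postn, Col1a1 and Col1a2) and 1 fell, the decorin gene Dcn, with 148 and 78.2 in FIH null cells against 588 and 632 in wild type cells (at least 2.10-fold lower; adjusted p from 0.054 to 0.175 with any 1 array left out). Cartilage and bone markers summed to 1798 and 2182 in FIH null cells and 4747 and 4369 in wild type cells. Most of that gap was Col2a1, with 24.1 and 40.2 in FIH null cells against 2049.5 and 2272.5 in wild type cells. The sums thus mainly repeat the fall of that collagen gene. Of 11 markers 1 was above the cutoff on all 4 arrays, and Col2a1 and Acan fell. The Acan call ended with any 1 array left out (adjusted p from 0.0805 to 0.147). Neural markers summed to 8598 and 9097 in FIH null cells and 8786 and 8928 in wild type cells, with Map2 higher (0.88, adjusted p = 0.00423, and 0.0862 for the average of its probe sets) and Tubb3 lower (-0.96, adjusted p = 0.00577, and 0.0522 without FIH null replicate 1). Macrophage markers summed to 3933 and 3949 in FIH null cells and 4110 and 3822 in wild type cells, and 0 of 4 tested passed, also at an unadjusted p under 0.05 (limma). The part of the cartilage markers in the falls of matrix genes was not tested. Y-linked transcripts were present in both groups: Eif2s3y read 8336 and 8659 in FIH null cells, against 5492 and 5982 in wild type cells (0.57, adjusted p = 0.00333), and Kdm5d differed by 0.48 (adjusted p = 0.144). The 3 Xist probe sets read between 6.4 and 293.5 on these 4 arrays. By chromosome the share of genes that passed was highest on chromosome 18 among the autosomes. It was 10.2% of 284 there (16 higher and 13 lower, median 0.11), against 5.28% of all tested genes. On chromosome 19, which carries Hif1an, 4.85% of 412 passed, 0 higher and 20 lower. Falls outnumbered rises on most chromosomes, for example 3 higher and 46 lower among 848 on chromosome 7.

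The next question was whether genes that changed in FIH null cells also differed between double null and VHL null cells, a pair of groups that shares no array with the first and differs in the same gene on a background without VHL. In that pair 4047 genes (35.0%) changed, 2390 higher and 1657 lower. Of the 611 genes 400 passed there as well, 294 with the same sign (90 higher and 204 lower) and 106 with the opposite sign. The 294 were 48.1% of the FIH null changes and 7.26% of the double null changes. Of the 161 rises in FIH null cells 90 rose again (55.9%, against 20.7% of all genes) and 20 fell. Of the 450 falls 204 fell again (45.3%, against 14.3% of all genes) and 86 rose. The change differed in size or direction between the pairs for 327 of the 611 genes by the interaction term. That term passed for 19.1% of all genes. The 611 were picked by their change in FIH null cells, which is part of the term, so these shares cannot be compared. Both pairs were fitted with 1 common residual variance for a gene, and each of the 4 groups has its own line.

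Genes that rose in both included the HIF targets Ankrd37 and Egln3 and the glycogen phosphorylase gene Pygl. As a list, hypoxia-inducible genes mostly did not pass in FIH null cells: of 45 tested 8 rose, 4 fell and 33 did not pass. Ankrd37 read 16062 and 15321 in double null cells, against 3895 and 3082 in VHL null cells (rise of 2.17, adjusted p = 1.24e-06), a larger rise than in FIH null cells (interaction 0.67, adjusted p = 0.0327). Egln3 read 17534 and 16702 in double null cells, against 4188 and 4412 in VHL null cells (1.99, interaction 1.18, adjusted p = 0.00014). Pygl read 13296 and 11289 in double null cells, against 2651 and 2830.0 in VHL null cells (2.15, interaction 1.12, adjusted p = 0.00186). In all 3 the FIH null arrays lay between the wild type and the double null arrays. Postn rose by 1.40 in double null cells, close to its rise in FIH null cells (interaction 0.04, adjusted p = 0.87), and the homeobox gene Six2 by 1.78 and the G protein subunit gene Gng2 by 1.35. In FIH null cells Six2 (0.92) lost its call with any 1 of the 4 arrays left out (adjusted p from 0.0561 to 0.117), and Gng2 (0.88) without FIH null replicate 2 (0.0832) or wild type replicate 2 (0.0596). Of all 45 tested hypoxia-inducible genes 24 rose and 4 fell in double null against VHL null cells. Over all tested genes 20.7% rose and 14.3% fell there. Of the 12 that passed in FIH null cells 8 passed with the same sign in double null cells and 3 did not pass. The remaining gene, Adm, passed with the opposite sign, at 18836 and 16327 in double null cells against 4348 and 4810.1 in VHL null cells.

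Genes that fell in both included Gnai1, Spry1, Adgrg6, Ppbp and Mfap2. Adgrg6, an adhesion receptor gene, read 1159 and 1185 in FIH null cells, against 4615 and 4535 in wild type cells, and 1319.5 and 937 in double null cells, against 6678 and 6736 in VHL null cells. Ppbp, a platelet chemokine gene, had log2 differences of -1.76 in the pair with VHL (adjusted p = 0.0009) and -2.67 in the pair without it (adjusted p = 1.2e-05). Spry1 fell by 2.16 and 2.26 in these pairs (interaction -0.09, adjusted p = 0.856). Several Hox genes of the B and C clusters had a larger fall in double null cells by the interaction term, among them Hoxb3, Hoxb6 and Hoxc5. Hoxb6 read 177 and 176 in double null cells, against 7449.9 and 7676 in VHL null cells (-5.30, interaction -2.20, adjusted p = 1.15e-05). Hoxc10 had the smaller fall there (-1.85, interaction 1.96, adjusted p = 0.00771), and for Hoxb9 the interaction did not pass (-0.70, adjusted p = 0.12). All 6 tested HoxB and all 6 HoxC genes fell in double null cells, and all 5 HoxD genes rose. HoxA was mixed, with 3 rises and 5 falls among 8. Over all tested genes 20.7% rose and 14.3% fell in this pair. Zic1 read 104 and 39.3 in double null cells, against 13829 and 14791 in VHL null cells.

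Of the 106 genes with opposite signs 86 were lower in FIH null and higher in double null cells, and 20 went the other way, among them Gas7 (1.01 and -1.32) and Slc14a1 (0.93 and -0.82). Among the 86, Rspo2 read 6644 and 6938 in double null cells, against 837 and 857 in VHL null cells (2.98, interaction 4.21, adjusted p = 1.26e-07). Cdh11 read 4044 and 3749 in double null cells, against 1624 and 2018 in VHL null cells (1.10, interaction 5.24, adjusted p = 9.85e-08). Ackr3, a chemokine scavenger receptor gene, read 4636 and 4642 in FIH null cells, against 8965 and 9076 in wild type cells, and 31541 and 31543 in double null cells, against 18270.2 and 16619 in VHL null cells. The directions were opposed on every array of the pairs for these 3 genes, which were taken from those with opposite signs. Rcan2, an inhibitor of calcineurin (-1.34 and 1.78), the semaphorin gene Sema3d (-1.28 and 1.08), Nsg1 (-1.04 and 2.74) and Endod1 (-1.03 and 1.41) behaved alike. The Endod1 call in FIH null cells ended with any 1 of the 4 arrays left out (adjusted p from 0.0513 to 0.0603). Notch1 fell in FIH null cells and rose by 0.48 in double null cells (adjusted p = 0.0213).

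**Figure D5:**
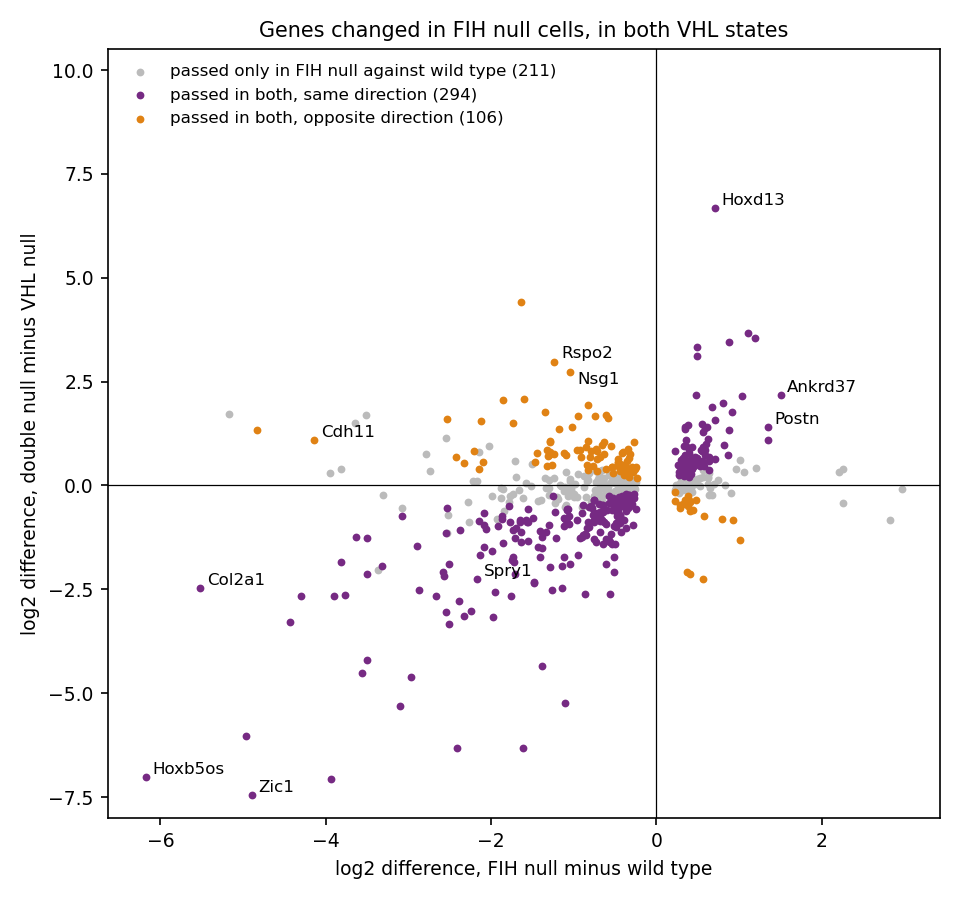
Each point is 1 of the 611 genes that changed in FIH null cells, with its log2 difference FIH null minus wild type on the x axis and double null minus VHL null on the y axis; purple marks the 294 that passed in both with the same sign, orange the 106 with opposite signs and grey the 211 that passed on the x axis only. Ankrd37 and Postn lie upper right, Zic1 and Hoxb5os lower left, and Rspo2, Nsg1 and Cdh11 upper left.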

How the data were processed

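RNA of large T-immortalized mouse embryonic fibroblasts was hybridized to 8 Affymetrix Mouse Genome 430 2.0 arrays, 2 for each of 4 genotypes, which the labels call biological replicates. The deposited values are MAS5 signal intensities, a linear brightness per probe set that the authors scaled on each array, per the submitters' processing notes; the MAS5 version is not given in the sources used here. The mean signal with 2% of probe sets trimmed at each end was 2500.01 on every array, and medians lay between 281.7 and 307.5. Deposited signals were converted to log2(signal + 16), with no further normalization. Of 45101 probe sets 64 were controls, 34945 others had 1 gene symbol in the platform annotation, 932 had several and 9160 had none.

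A probe set was tested if 2 or more arrays exceeded 291.1, the median signal of the whole data set, which left 24523. A fit of group means over all 8 arrays was made with limma 3.58.1 in R 4.3.3 (eBayes with a variance trend, two-sided, Benjamini-Hochberg adjusted over all tested probe sets, threshold 0.05). Where several tested probe sets read 1 gene the brightest on average (log2) stood for it, which gave 11564 genes. The script was tested on simulated data.

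The genes named were those of the HIF system, the 10 largest rises and falls above the cutoff on all 4 arrays, the 6 largest bounds in each direction, the called members of each list (the 4 with the smallest p where there were over 5), the largest changes called in both pairs of groups, and sex-linked genes. Other called members of a list, further genes used for a comparison and those said to be so were chosen after their values were seen. Members and lists were chosen with earlier results of these data known. Alternatives covered pseudocount, filter, scaling, probe set choice, variance trend, array weights, replicate block, the samples fitted and each array left out.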

Additional observations from a re-analysis of the deposited data

Results flagged for a closer look

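The change in double null over VHL null cells differed from that in FIH null over wild type cells for 70 of 122 named genes. The interaction term of the fit across all genes gave these calls (limma, adjusted p under 0.05), and it passed for 19.1% of all tested genes. Most named genes were picked by their change in FIH null cells, which is part of that term, so these shares cannot be compared. The value after each gene is that difference of differences on the log2 scale, double null minus VHL null less FIH null minus wild type. For some genes, such as Zic1 and Col2a1, all FIH null and double null arrays lay below the cutoff. Their values then follow the levels in wild type and VHL null cells as well, for Col2a1 2049.5 and 2272.5 against 401.6 and 571.5. No bounds are given here. The pairs differ in line of origin as well as in VHL, which cannot be told apart.

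Genes that rose in both pairs were Egln3 (1.178), Ankrd37 (0.669), Aspn (2.346), Pygl (1.119), Lhx2 (2.566), Crabp2 (0.875), Me1 (0.6), Cdkn2b (0.604), Eif2s3y (0.714), Map2 (2.576) and Six2 (0.862). Genes that fell in both pairs were Ndnf (2.226), Hoxb6 (-2.201), Bicc1 (2.335), Hoxb3 (-1.643), Fbn2 (1.979), Hoxc5 (-3.9), Zic1 (-2.565), Asb4 (1.121), Pfkfb2 (0.709), Col18a1 (0.593), Col2a1 (3.052) and Npnt (1.286). Further genes of this kind were Hoxc10 (1.963), Il1rn (1.437), Tgfbi (-0.787), Fzd1 (0.495), Wnt4 (1.394), Igfbp7 (0.662), Sema3c (0.673), Ntn1 (-0.876), Rarres1 (2.388) and Adgrg6 (-0.624). Genes that fell in FIH null cells and rose in double null cells were Alcam (3.115), Rbm45 (2.875), Cdh11 (5.239), Notch1 (1.747), Ogn (1.777), Osr2 (3.037), Irgm1 (0.897), Inhbb (2.668), Fst (2.02), Rspo2 (4.212), Cnn1 (1.625) and Acta2 (1.33). Further genes of this kind were Fat4 (3.678), Itga6 (1.675), Rbp4 (2.613), Trp53inp1 (2.217), Rcan2 (3.122), Sema3d (2.365), Nsg1 (3.781), Endod1 (2.434) and Ackr3 (1.812). Genes that rose in FIH null cells and fell in double null cells were Gas7 (-2.33) and Slc14a1 (-1.754). Genes that fell in FIH null cells and did not pass in double null cells were Stc1 (1.633), Sox4 (0.605), Foxc2 (1.132), Igf2 (1.412), Ccn2 (0.508) and Cox6b2 (2.305). Genes that rose in FIH null cells and did not pass in double null cells were 1810062G17Rik (-2.686), Ntng1 (-3.643), Rarg (-0.409), Nqo1 (-0.437), Mthfd2 (-0.459) and Slc6a9 (-0.467). Genes that did not pass in FIH null cells and rose in double null cells were Epas1 (2.219) and Kdm5d (1.218).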

How the results depend on the processing

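With 2 arrays a group the number of arrays limits the precision, and the count of changed genes moved with the array left out. It ran from 297 to 747 with 1 of the 8 arrays left out, 297 without FIH null replicate 1 and 747 without double null replicate 2. Over the same settings there were 41 to 239 genes higher and 241 to 508 lower, 141 to 202 changed at least 2-fold, 158 to 326 changed the same way in both pairs and 1329 to 2094 with an interaction. A group left with 1 array is assumed to vary like the others. The count for double null against VHL null stayed within 1.5 times of 4047 under every alternative.

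Scaling moved the split between rises and falls, and only median centring gave more rises than falls. Median centring gave 966 changed genes, 622 higher. Scaling to hybridization controls gave 4507, with 62 higher and 4445 lower, 392 of at least 2-fold and 1665 the same way in both pairs. Without the variance trend there were 306 changed genes, 49 higher and 257 lower, 160 the same way in both pairs and 1272 with an interaction. Array weights gave 269 higher, no filter on low signals 104 higher, and a filter at the 75th percentile (2454.3) 75 of at least 2-fold. The cause was not tested, except that the 75th percentile filter tests fewer genes. Quantile normalization, other pseudocounts (1 and 64) and fits on the compared groups alone kept all counts they gave within 1.5 times.

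Of 122 named genes with values 53 lost their call under at least 1 alternative, 4 gained one, and 7 changed sign under 1: H2-D1 with the mean of probe sets (-0.968), Egln2 with median centring (0.005), Ntng1 with no filter (-0.608), Vhl (-0.178), Egln1 (-0.058) and Me1 (-0.026) with scaling to hybridization controls, and Arnt without cross-hybridizing probe sets (0.252). The cause was not tested. Without the variance trend the calls of Hoxc5 (adjusted p = 0.0808), Col1a1 (0.0809), Mmp2 (0.0504), Fgf7 (0.0613), Cnn1 (0.0552) and Eif2s3y (0.0522) ended. Arrays of 1 replicate number did not deviate together (correlations from -0.0157 to 0.0318 over 6 pairs of groups), and the fit with the replicate block gave 710 changed genes, 230 higher and 480 lower.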
